A study of Mus musculus with 16 samples.

Results

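The 34 genes described here are known markers of microglia, the resident immune cells of the brain, and were chosen by name as the rows of the deposited table that carry their symbols. All 34 were found among the 20841 genes of the table. The values are CPM, reads of a gene scaled to library size, from polyA RNA of mouse cortex taken from the right hemisphere. The 16 libraries formed 4 groups of 4 libraries each: P7 cKO, P7 control, P0 cKO and P0 control, where P7 is postnatal day 7, P0 the day of birth and cKO a conditional knockout of Foxp1 restricted to the forebrain. Neither the Cre line nor the strain nor the genotype of the control mice is given in the sources, and the labels do not say whether the libraries of a group came from separate mice. The p-values therefore measure the spread between libraries only. The P0 libraries were sequenced as 50-base reads on a BGISEQ-500 and the P7 libraries as 75-base reads on a NextSeq 500 at another centre, and library preparation differed too, so age cannot be told apart from platform and preparation.

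Microglia arise from yolk sac progenitors, enter the brain before birth and spread through the cortex in the first weeks of life. They depend on the receptor Csf1r and are set up by the transcription factors PU.1 (the product of Spi1), Irf8 and Runx1. In the young cortex they take up dying cells and synapses through complement, Trem2 and Mertk, and with age they gain a surveying state marked by P2ry12 and Tmem119. Foxp1 encodes a forkhead transcription factor that cortical neurons express. In RNA of whole cortex, fewer microglia and less RNA per microglial cell cannot be told apart.

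Recovered depth was 9858296 to 15335738 reads per P7 library and 17957490 to 18232943 reads per P0 library. Foxp1 itself lay at 162 to 246 CPM in P7 cKO cortex against 375 to 539 CPM in P7 control cortex. At P0 it lay at 131 to 182 CPM in P0 cKO cortex against 273 to 364 CPM in P0 control cortex. The cKO means were 48.9% of the control mean at P7 and 49.3% at P0. Control libraries 2 and 6 stood apart at P0, with first component scores of 38.1 and 19.5. Control libraries 1 and 5 scored -6.27 and -0.443, and the 4 cKO libraries scored -17.9 to -7.9. Every control thus lay above every cKO library on this component, so it separates the genotypes as well. P0 results that rest on control libraries 2 and 6 are given with and without them. The 7 red blood cell genes found summed to 15.1 to 26.7 CPM in P7 cKO and 13.7 to 15.5 CPM in P7 control cortex. At P0 they summed to 15.9 to 20.1 CPM in cKO and 20.8 to 29.1 CPM in control cortex. Genes that mark monocytes and neutrophils were low. The 12 of them summed to at most 2.77 CPM in a P7 cKO library and 3.16 CPM in a P7 control library. Their highest sums at P0 were 3.82 CPM in a cKO library and 4.23 CPM in a control library. At 0 in every library of a group were 6 of the 12 in P7 cKO cortex (S100a8, Ly6c2, Lcn2, Mpo, Elane and Retnlg), 3 in P7 control cortex (Ly6c2, Elane and Retnlg), 1 in P0 cKO cortex (Elane) and 0 in P0 control cortex.

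The promoters of 4 members are shown because they hold GAGGAAGT, the core of the PU.1 site, and because their genes include Spp1, which differed between genotypes, and C1qc, which differed with age in the direction opposite to Ctss and Cd53. They are RefSeq promoters (250 bases before to 50 after the annotated start, build GRCm38.p6), written 5′ to 3′ on the strand of the gene, with the motif in capitals.
Spp1 (chr5:104434861-104435160, plus strand): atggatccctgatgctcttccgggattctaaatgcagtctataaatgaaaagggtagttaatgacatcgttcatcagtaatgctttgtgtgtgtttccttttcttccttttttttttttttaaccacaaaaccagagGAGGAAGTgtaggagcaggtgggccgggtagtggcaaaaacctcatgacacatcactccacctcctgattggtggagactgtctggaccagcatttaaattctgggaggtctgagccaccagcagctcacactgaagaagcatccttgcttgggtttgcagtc
C1qc (chr4:136892865-136893164, minus strand): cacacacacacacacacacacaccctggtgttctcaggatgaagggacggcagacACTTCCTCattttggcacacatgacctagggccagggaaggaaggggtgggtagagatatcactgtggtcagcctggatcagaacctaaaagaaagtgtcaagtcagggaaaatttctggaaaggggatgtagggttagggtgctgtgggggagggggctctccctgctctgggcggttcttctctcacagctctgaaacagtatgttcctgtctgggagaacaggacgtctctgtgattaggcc
Ctss (chr3:95526536-95526835, plus strand): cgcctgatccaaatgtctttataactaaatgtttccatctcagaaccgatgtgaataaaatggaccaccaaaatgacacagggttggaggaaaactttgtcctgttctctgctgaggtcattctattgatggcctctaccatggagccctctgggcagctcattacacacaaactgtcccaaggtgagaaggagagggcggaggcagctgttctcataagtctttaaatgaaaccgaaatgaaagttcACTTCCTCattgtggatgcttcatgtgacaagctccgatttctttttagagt
Cd53 (chr3:106790100-106790399, minus strand): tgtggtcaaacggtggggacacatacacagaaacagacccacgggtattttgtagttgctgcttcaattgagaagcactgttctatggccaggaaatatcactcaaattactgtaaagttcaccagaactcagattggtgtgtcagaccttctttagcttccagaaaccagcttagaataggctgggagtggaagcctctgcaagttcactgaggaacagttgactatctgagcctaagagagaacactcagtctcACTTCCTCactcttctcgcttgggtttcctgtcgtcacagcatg
RefSeq gives Spp1 another promoter (chr5:104435942-104436241), which does not hold the motif. In the Spp1 promoter shown, the motif begins 113 bases before the start and reads along the gene. In C1qc it begins 195 bases before, in Ctss 2 bases before and in Cd53 6 bases after the start, and in these 3 it reads along the other strand. On both strands the motif was found in 4 of the 32 promoters of the 26 members that have one in RefSeq (12.5%), and in 3.2% of all 32851 promoters. A longer PU.1 and IRF composite (GGAA and, after any 2 bases, GAAA), which shares GGAA with the first motif, was found in 1 of the 32, that of the lysosomal glycoprotein gene Cd68 (3.12%), and in 2.72% of all promoters. A match describes the letters of the promoter, not a bound site.

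Microglial RNA was detected at every age, but several of the genes that define the cells were listed at 0 or low. P2ry12 and P2ry13 were at 0 in all 8 P0 libraries, Irf8 was at 0 in all 16, and Tmem119, Selplg and Cd14 did not exceed 1.22, 0.820 and 0.410 CPM in any library. Divided by exon length, the P7 control means were led by Lgmn with 24.0 CPM per kb, P2ry12 with 15.8, Spp1 with 12.1 and Ctss with 9.77. The P0 control means were led by Ifi30 with 24.5 CPM per kb, Lgmn with 18.7, C1qb with 8.34 and Ctss with 6.34. Summed over the 34 members the libraries held 287 to 360 CPM in P7 cKO cortex and 276 to 301 CPM in P7 control cortex, against 174 to 195 CPM in P0 cKO cortex and 168 to 196 CPM in P0 control cortex. The sums of the genotypes overlapped at each age, and the P7 sums lay above the P0 sums in both genotypes. P2ry12 and P2ry13 entered these sums at P7 only. Without them and without Irf8, Spp1 and Ifi30, the sums were 206 to 257 CPM in P7 cKO cortex and 203 to 236 CPM in P7 control cortex. At P0 the same members summed to 156 to 174 CPM in cKO cortex and 142 to 163 CPM in control cortex.

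**Figure D1:**
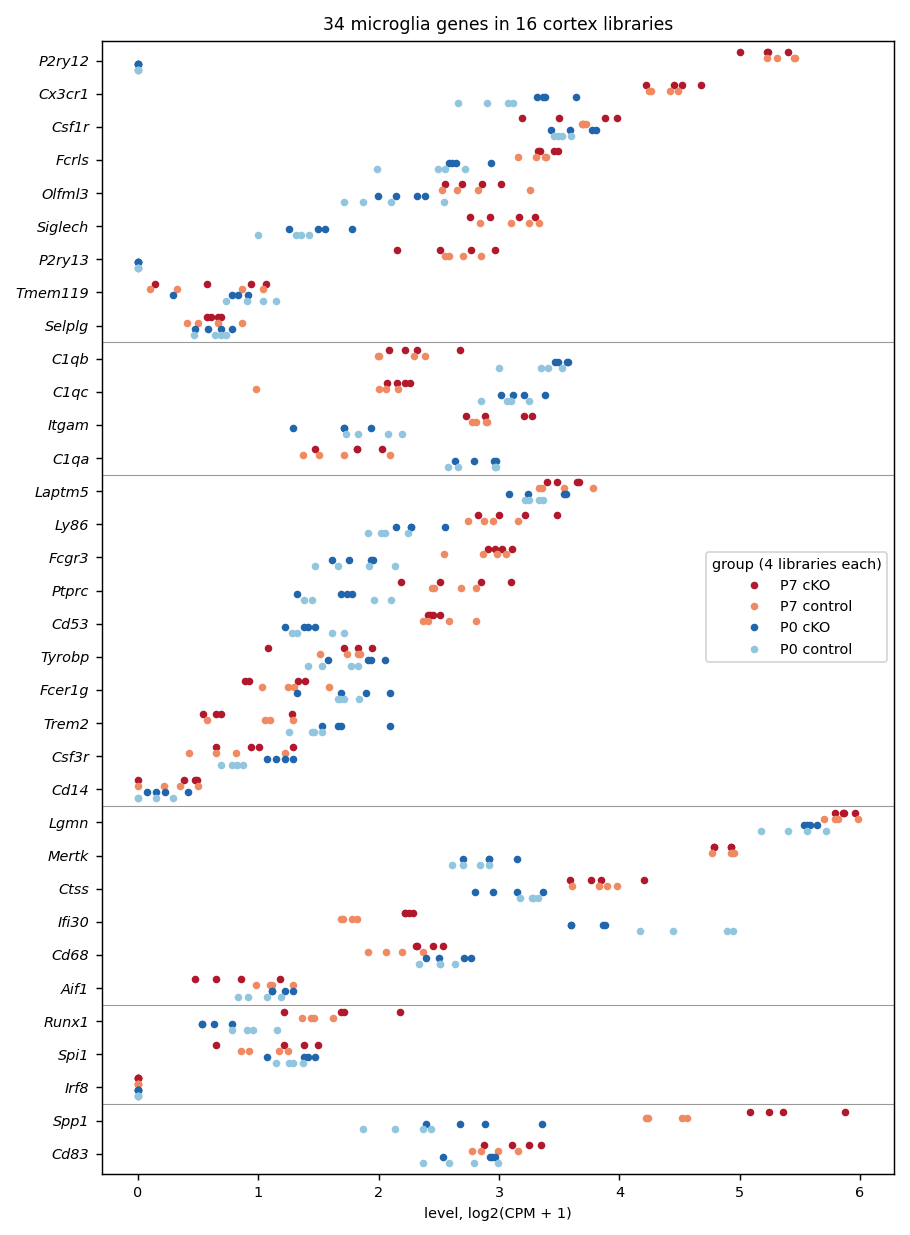
Levels of the 34 genes, as log2(CPM + 1), with 1 point per library, in 4 rows per gene for P7 cKO, P7 control, P0 cKO and P0 control. Grey lines separate the roles, from surface receptors at the top to the activation genes Spp1 and Cd83 at the bottom. P2ry12 and P2ry13 sit at 0 in every P0 library, Irf8 sits at 0 throughout, and Spp1 is the gene whose P7 cKO points lie farthest above its P7 control points.

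The first question was whether loss of Foxp1 in the forebrain changed microglial RNA at P7. Of the 29 members that passed the filter at that age (1 CPM or more in 4 of the 8 libraries), 2 were called and both were higher in cKO cortex, Spp1 and Ifi30. This is 6.9% of those tested, beside 3.72% of all 12828 genes tested, with 1.67% called higher (limma on log2(CPM + 1), Benjamini-Hochberg adjusted p under 0.05). The same 2 of the 29 members were the only ones at an unadjusted p under 0.05, beside 1831 of the 12828 genes tested. They were also the only members whose groups did not overlap, beside 8.88% of all genes (5.11% higher and 3.77% lower in cKO cortex). The median log2 fold change was 0.06 over the 29 members and 0.03 over all genes. Tmem119, Selplg, Csf3r, Irf8 and Cd14 were too low to be tested.

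Spp1 (chr5:104435118-104441050, plus strand) encodes osteopontin, a secreted protein that activated microglia make and that other brain cells can also make. It had 32.9, 57.5, 40.0 and 36.9 CPM in the P7 cKO libraries, against 22, 17.8, 17.7 and 22.6 CPM in the P7 control libraries. Every cKO library lay above every control library, with library 42 highest. The mean was 41.8 ± 10.9 CPM in cKO cortex and 20.0 ± 2.62 CPM in control cortex (SD, n = 4 each), a ratio of 2.09 and a log2 fold change of 1.0 (SE 0.14, limma adjusted p = 0.000584). The call held in each of the 16 alternatives that tested it, with log2 fold changes of 0.84 to 1.11 and adjusted p of 4.89e-10 to 0.00722. Cd83, the other activation gene, encodes a surface protein of antigen-presenting cells. It had 9.19, 8.48, 6.34 and 7.61 CPM in the P7 cKO libraries, against 5.83, 6.97, 7.94 and 6.23 CPM in the P7 control libraries. The groups overlapped, with a log2 fold change of 0.20 (SE 0.13, limma adjusted p = 0.57).

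Ifi30 (chr8:70762774-70766663, minus strand) encodes a lysosomal thiol reductase that prepares proteins for presentation. It had 3.65, 3.86, 3.66 and 3.75 CPM in the P7 cKO libraries, against 2.25, 2.53, 2.43 and 2.21 CPM in the P7 control libraries, from 37 to 56 reads per cKO library and 27 to 37 reads per control library. The cKO libraries all lay above the control libraries and each group was tight. The log2 fold change was 0.50 (SE 0.13, limma adjusted p = 0.0398). The call was lost with any 1 of the 8 libraries left out (adjusted p 0.0616 to 0.106), and over the 15 alternatives the adjusted p ran from 0.0358 to 0.132 with 3 calls.

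The other 27 members tested at P7 did not pass. For the most abundant ones the intervals were narrow: the 95% interval of the log2 difference was -0.10 to 0.19 for the protease gene Lgmn, -0.20 to 0.13 for the uptake receptor gene Mertk and -0.33 to 0.04 for the ADP receptor gene P2ry12. For Csf1r it was -0.38 to 0.25 and for Cx3cr1 -0.11 to 0.33. For Lgmn, Mertk, P2ry12, Csf1r and Cx3cr1 the bounds lie on the log2(CPM + 1) scale and all lie nearer to 0 than the lower bound for Spp1, 0.71. Genes with few reads, such as Aif1, Trem2 and Spi1, with 6 to 28 reads in their cKO libraries, had wider ones, -0.71 to 0.05 for Aif1, -0.65 to 0.22 for Trem2 and -0.28 to 0.55 for Spi1.

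At P0 no member passed the test between genotypes. Of 27 members tested 0 were called, beside 0.254% of all 12580 genes tested, 0.183% higher and 0.0715% lower (limma, adjusted p under 0.05). At an unadjusted p under 0.05 there were 4 of the 27 members, Ifi30, Cx3cr1, Spp1 and Csf3r, beside 2276 of the 12580 genes. edgeR called 0 members and DESeq2 called 1, Ifi30. The log2 fold change was positive for 22 members and negative for 5, with a median of 0.13 against 0.01 over all genes. Groups did not overlap for 4 members, Cx3cr1, Trem2 and Csf3r higher in cKO cortex and Ifi30 lower, beside 9.86% of all genes (5.37% higher and 4.5% lower). P2ry12, P2ry13, Tmem119, Selplg, Irf8, Runx1 and Cd14 were not tested at this age.

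Ifi30 had 11.1, 11.1, 13.6 and 13.7 CPM in the P0 cKO libraries, against 17, 29.7, 20.8 and 28.7 CPM in the P0 control libraries. All 4 cKO libraries lay below the controls, and the 2 highest controls were libraries 2 and 6, which stand apart. The mean was 12.4 ± 1.47 CPM in cKO cortex and 24.1 ± 6.16 CPM in control cortex (SD, n = 4 each), a log2 fold change of -0.88 (SE 0.18, limma adjusted p = 0.0585). Without control libraries 2 and 6 it was -0.58 (SE 0.15, limma adjusted p = 0.0815), and over the 17 alternatives the adjusted p ran from 0.000341 to 0.254, with 4 calls. Among these it passed without control library 1 (adjusted p = 0.0186) and without control library 5 (adjusted p = 0.048).

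Cx3cr1 (chr9:119901616-120069879, minus strand), the receptor for the neuronal chemokine fractalkine, had 11.4, 8.97, 9.41 and 9.29 CPM in the P0 cKO libraries, against 7.4, 5.32, 7.68 and 6.46 CPM in the P0 control libraries. The groups did not overlap, and the lowest controls were again libraries 2 and 6. The log2 fold change was 0.49 (SE 0.15, limma adjusted p = 0.156), and without those libraries it was 0.33 (adjusted p = 0.331). In 1 fit over all 16 libraries it passed (adjusted p = 0.0301). Beside it, the 11 border macrophage genes summed to 14.4 to 18.5 CPM in P0 cKO cortex and 9.74 to 13.3 CPM in P0 control cortex, without overlap. Only 3 of these 11 genes were tested at P0, and Pf4, Cd163 and Lyve1 were among those too low. The part of those cells in the Cx3cr1 value was not tested.

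Spp1 had 9.23, 5.37, 6.36 and 4.26 CPM in the P0 cKO libraries, against 3.4, 4.15, 2.65 and 4.4 CPM in the P0 control libraries. The lowest cKO library lay below the highest control, so the groups overlapped. The log2 fold change was 0.62 (SE 0.21, limma adjusted p = 0.177), and without control libraries 2 and 6 it was 0.82 (adjusted p = 0.0945).

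**Figure D2:**
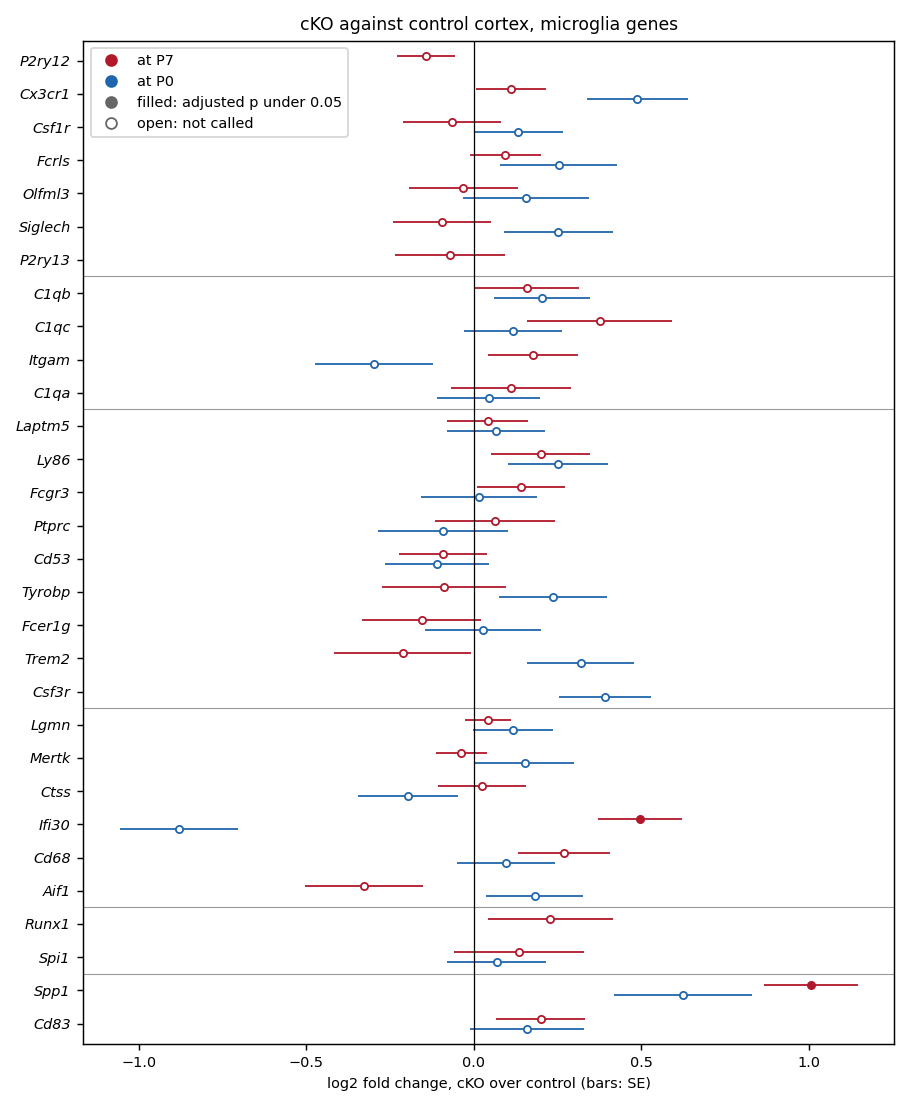
Log2 fold change of cKO over control for each member tested, at P7 and at P0, from limma with bars of 1 SE; filled points passed an adjusted p of 0.05. Spp1 and Ifi30 at P7 are the filled points, and Ifi30 is the member whose P7 and P0 estimates lie on opposite sides of 0 and farthest apart.

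The difference between the genotype effects, P7 minus P0, was tested in 1 fit over the 16 libraries. The 31 members tested included P2ry12 and P2ry13, at 0 in every P0 library, so for them the difference was the P7 effect alone. Of the 31 members 1 was called, Ifi30, beside 0.751% of all 13444 genes tested. Its genotype effect was higher at P7 than at P0 by 1.38 on the log2 scale (SE 0.21, limma adjusted p = 0.00417). Without control libraries 2 and 6 the difference was 1.07 (adjusted p = 0.00512), and it passed in each of the 24 alternatives (1.07 to 1.60, adjusted p 4.35e-05 to 0.0141). For Spp1 the difference was 0.38 (SE 0.27, limma adjusted p = 0.506), with a 95% interval of -0.18 to 0.94. The difference is one of log2 ratios, and the Ifi30 levels themselves were several times lower at P7 in both genotypes.

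**Figure D3:**
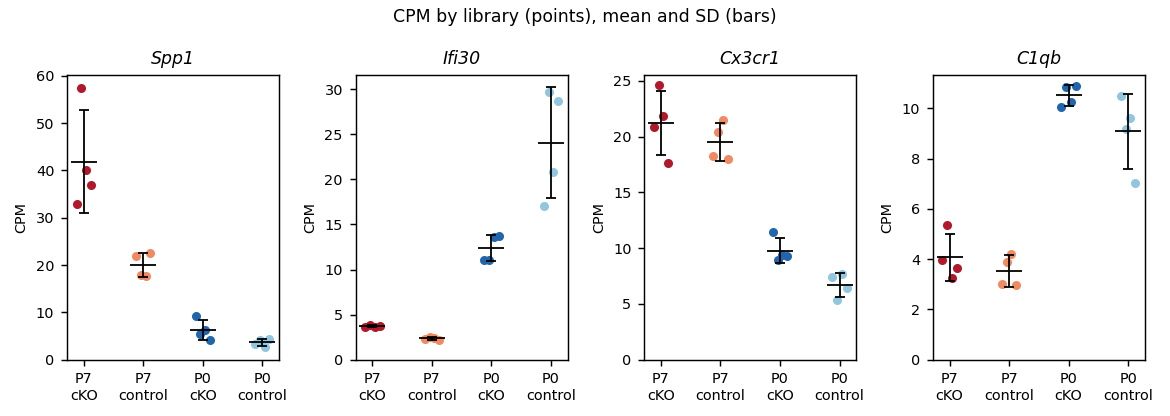
CPM of Spp1, Ifi30, Cx3cr1 and C1qb by library, with the mean and SD of each group of 4 libraries, in the order P7 cKO, P7 control, P0 cKO and P0 control. Spp1 is higher in cKO cortex at P7. Ifi30 lies at 3.65 to 3.86 CPM in P7 cKO cortex against 2.21 to 2.53 CPM in P7 control cortex but at 11.1 to 13.7 CPM in P0 cKO cortex against 17.0 to 29.7 CPM in P0 control cortex. Cx3cr1 and C1qb are separated mainly by age.

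Genes around the pathway gave some calls with genotype, shown beside 3.72% of all genes called at P7 (1.67% higher and 2.05% lower). Of 14 genes that signal to microglia, 13 were tested at P7, 1 was higher and 1 was lower (15.4% called). Apoe, the lipid carrier made by astrocytes and microglia, had 129.9 ± 7.82 CPM in P7 cKO cortex and 109 ± 7.97 CPM in P7 control cortex (SD, n = 4 each, log2 fold change 0.26, limma adjusted p = 0.0313). Cd47, the neuronal signal that restrains phagocytosis, was lower, with 315 ± 9.34 CPM in P7 cKO cortex and 373 ± 9.61 CPM in P7 control cortex (SD, n = 4 each, log2 fold change -0.24, limma adjusted p = 0.00391). The Csf1r ligands Csf1 and Il34 did not pass, at 0.30 (adjusted p = 0.194) and -0.36 (adjusted p = 0.195) on the log2 scale.

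Among 30 tested partners and further microglial genes, 1 was higher at P7 and none was lower (3.33% called, beside 3.72% of all genes). That was Sirpa, the receptor of Cd47, which neurons also express, with 237 ± 11.9 CPM in P7 cKO cortex and 190.0 ± 20.7 CPM in P7 control cortex (SD, n = 4 each, log2 fold change 0.33, limma adjusted p = 0.0139). Among 11 tested genes of activated postnatal microglia, Gpnmb was higher and Lpl was lower (18.2% called, beside 3.72% of all genes). Gpnmb, a glycoprotein of phagocytes, had 5.41, 7.98, 5.29 and 3.55 CPM in the P7 cKO libraries, against 2.5, 2.19, 4.05 and 1.38 CPM in the P7 control libraries. Only control library 46 reached into the range of the cKO libraries, and the log2 fold change was 0.90 (SE 0.23, limma adjusted p = 0.0376). Lpl, a lipase that neurons express as well, had 179 ± 9.38 CPM in P7 cKO cortex and 235 ± 20.4 CPM in P7 control cortex (SD, n = 4 each, log2 fold change -0.39, limma adjusted p = 0.00182).

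Border macrophage genes, which share many markers with microglia, were not called at either age between genotypes. At P7 0 of 6 tested passed, and their 11 genes summed to 50.0 to 56.4 CPM in cKO cortex and 45.2 to 56.2 CPM in control cortex. Among the other cell types, Lum of the meninges, Slc1a2 of astrocytes and Rbfox3 and Snap25 of neurons were lower in P7 cKO cortex, at -0.75, -0.27, -0.23 and -0.30 on the log2 scale (limma adjusted p 0.0246, 0.0246, 0.0319 and 0.00366). These were 1 of 8 tested meningeal genes (12.5%), 1 of 11 astrocyte genes (9.09%) and 2 of 13 neuron genes (15.4%), beside 3.72% of all genes. Vessel, oligodendrocyte and cell cycle lists had 0 calls at P7. At P0 no gene of any list was called by limma, beside 0.254% of all genes. The meningeal genes summed to 453 to 588 CPM in P7 cKO cortex and 402 to 530.4 CPM in P7 control cortex. Whether any of these cells add to the Spp1 and Gpnmb values was not tested.

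With age most members moved, as did most genes. In cKO cortex 23 of 31 members tested were called between P7 and P0, 16 higher and 7 lower at P7, beside 81.7% of all 13444 genes (35.5% higher and 46.2% lower). In control cortex it was also 23 of 31, 16 higher and 7 lower, beside 82.5% of all genes (35.1% higher and 47.3% lower). The ages did not overlap for 21 of the members in cKO cortex, 16 higher and 5 lower, beside 79.2% of all genes (34% higher and 45.2% lower), and for 20 in control cortex, 15 higher and 5 lower, beside 74.4% (31.2% higher and 43.3% lower). P2ry12 and P2ry13, at 0 in every P0 library, are among the higher and the non-overlapping members of each genotype. They passed the filter only through P7, and without them 14 of 29 members were called higher in each genotype. The 16 higher members were the same in both genotypes, and 6 of the lower ones were shared: C1qa, C1qb, C1qc, Fcer1g, Trem2 and Ifi30. Under medians-of-ratios scaling, which moved the median of all genes up by 0.182 in cKO cortex and 0.209 in control cortex, the split was 18 higher and 6 lower in cKO cortex and 19 higher and 4 lower in control cortex. The median of all genes was then 0.008 in cKO and 0.011 in control cortex. The shares of all genes called under this scaling are not given, so this split cannot be set beside the shares above. The members' median log2 difference was 0.30 beside -0.17 for all genes in cKO cortex and 0.36 beside -0.19 in control cortex, and without P2ry12 and P2ry13 it was 0.29 in cKO and 0.26 in control cortex; these 2 genes entered the fit only through their P7 values.

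Surface receptors and secreted proteins of the microglial signature included 6 of 8 tested that were higher at P7 and none that was lower, in each genotype, or 4 of 6 without P2ry12 and P2ry13, which passed the filter only through P7. Over all genes 35.5% were called higher in cKO cortex and 35.1% in control cortex. P2ry12 (chr3:59216272-59262871, minus strand), the ADP receptor that steers microglial processes, had 31.1, 36.7, 41.3 and 36.5 CPM in the P7 cKO libraries and 36.5, 38.7, 42.8 and 42.9 CPM in the P7 control libraries. At P0, P2ry12 was at 0 in all 4 cKO and all 4 control libraries. The P7 genotypes overlapped. P2ry13, a related ADP receptor next to it, had 3.45 to 6.83 CPM in P7 cKO cortex and 4.86 to 6.22 CPM in P7 control cortex and was likewise listed at 0 at P0.

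Both genes lie wholly inside Med12l, a gene of the opposite strand, and genes placed so were more often listed at 0 at P0. Of 483 genes with all exons under the body of an opposite-strand gene, 26.9% were at 0 in all P7 libraries and 94.6% in all P0 libraries, 333 of them at P0 alone and 6 at P7 alone. For genes under no other gene of the table the shares were 18.3% and 16.7% of 16328. Irf8 (chr8:120736358-120756694, plus strand), a transcription factor that microglia need, lies wholly inside the same-strand gene Gm20388, and of 341 genes placed in that way 80.6% were at 0 in all P7 libraries and 79.5% in all P0 libraries. No fold is given for P2ry12, P2ry13 or Irf8, and the part of these overlaps in their zeros was not tested.

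**Figure D4:**
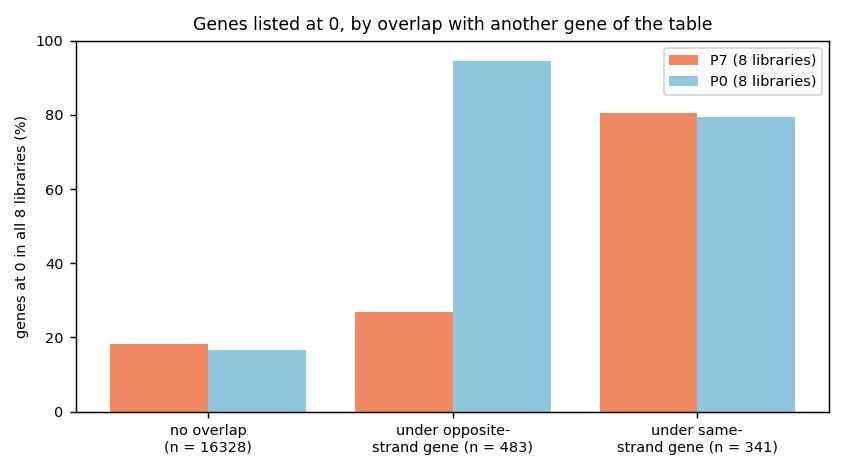
Share of genes at 0 in all 8 libraries of an age, for genes with no exon under another gene of the table, genes wholly under an opposite-strand gene and genes wholly under a same-strand gene, with P7 left of P0. The ages lie farthest apart in the class that holds P2ry12 and P2ry13, at 26.9% for P7 and 94.6% for P0.

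Cx3cr1 had 20.9, 24.6, 21.9 and 17.6 CPM in the P7 cKO libraries and 18.2, 20.4, 21.5 and 18 CPM in the P7 control libraries. At P0, Cx3cr1 had 11.4, 8.97, 9.41 and 9.29 CPM in cKO libraries and 7.4, 5.32, 7.68 and 6.46 CPM in control libraries. The P7 libraries lay above the P0 libraries in both genotypes, with a log2 difference of 1.04 (SE 0.13, limma adjusted p = 2.05e-07) in cKO cortex and 1.42 (SE 0.13, adjusted p = 1.76e-09) in control cortex. Csf1r (chr18:61100598-61132149, plus strand), the receptor on which microglial survival rests, had 13.8, 14.8, 10.3 and 8.12 CPM in the P7 cKO libraries and 12, 12.2, 12 and 11.9 CPM in the P7 control libraries. At P0, Csf1r had 13, 9.8, 12.7 and 11.1 CPM in cKO libraries and 10.5, 11.1, 10.0 and 10.2 CPM in control libraries. Its P7 and P0 levels overlapped in cKO cortex and lay close, but without overlap, in control cortex. It did not pass in either (log2 difference -0.01, limma adjusted p = 0.936 in cKO cortex and 0.19, adjusted p = 0.233 in control cortex). In control cortex it passed under medians of ratios (0.39, adjusted p = 0.0135), with edgeR (0.41, adjusted p = 0.0156) and with DESeq2 (0.44, adjusted p = 0.00474). An opposite-strand gene covers 15.1% of its exon bases. Siglech, a sialic acid-binding lectin, averaged 7.29 CPM in P7 cKO and 7.83 CPM in P7 control cortex, against 1.89 CPM in P0 cKO and 1.42 CPM in P0 control cortex. Fcrls, an Fc receptor-like scavenger receptor, and Olfml3, a secreted glycoprotein, were also higher at P7 by 0.71 and 0.57 in cKO cortex and 0.87 and 0.76 in control cortex on the log2 scale. Tmem119 did not pass in either genotype, at -0.02 and -0.38.

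Complement went the other way. The 3 chains of C1q, the starter of the classical pathway that tags synapses in the young brain, were all lower at P7 in both genotypes, while Itgam, a chain of the receptor that reads the downstream tag, was higher. Over all genes 46.2% were called lower in cKO cortex and 47.3% in control cortex. C1qb (chr4:136880129-136886187, minus strand) had 3.98, 5.37, 3.25 and 3.65 CPM in the P7 cKO libraries and 3, 3.89, 4.21 and 2.97 CPM in the P7 control libraries. At P0, C1qb had 10.1, 10.9, 10.2 and 10.9 CPM in cKO libraries and 10.5, 9.19, 9.62 and 7.02 CPM in control libraries. All P7 libraries lay below all P0 libraries, with a log2 difference of -1.20 (SE 0.14, limma adjusted p = 1.79e-07) in cKO cortex and -1.15 (SE 0.14, adjusted p = 3.01e-07) in control cortex. C1qc (chr4:136889804-136893065, minus strand), whose promoter is shown above, had 3.2, 3.78, 3.66 and 3.45 CPM in the P7 cKO libraries and 3.16, 3.01, 0.972 and 3.46 CPM in the P7 control libraries. At P0, C1qc had 9.45, 7.09, 8.25 and 7.69 CPM in cKO libraries and 8.5, 6.2, 7.35 and 7.57 CPM in control libraries. P7 control library 46 was the lowest, with 12 reads, and the log2 difference was -1.01 in cKO cortex and -1.27 in control cortex. For C1qa it was -1.06 and -1.12, in the same order.

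Summed, the 3 chains held 9.44 to 10.9 CPM in P7 cKO cortex and 7.45 to 10.2 CPM in P7 control cortex, against 23.8 to 26.4 CPM in P0 cKO cortex and 20.7 to 25.8 CPM in P0 control cortex. Itgam (chr7:128062640-128118491, plus strand) had 6.39, 8.65, 5.61 and 8.22 CPM in the P7 cKO libraries and 5.83, 6.01, 6.48 and 6.43 CPM in the P7 control libraries. At P0, Itgam had 1.44, 2.27, 2.82 and 2.27 CPM in cKO libraries and 3.56, 2.55, 2.32 and 3.23 CPM in control libraries. Its P7 libraries were above the P0 libraries, with log2 differences of 1.36 (SE 0.16, limma adjusted p = 8.00e-08) in cKO cortex and 0.89 (SE 0.16, adjusted p = 2.52e-05) in control cortex. The C1q chains and Itgam kept these directions and calls in each of the alternatives that tested them.

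Immune receptors and membrane proteins were mixed, with 4 of 9 tested higher and 2 lower at P7 in each genotype. That is 66.7% called, beside 81.7% of all genes in cKO cortex and 82.5% in control cortex. Over all genes 35.5% were called higher in cKO cortex and 35.1% in control cortex. Laptm5 (chr4:130913125-130936141, plus strand), a lysosomal membrane protein of blood-derived cells, had 11.7, 11.5, 9.52 and 10.1 CPM in the P7 cKO libraries and 9.08, 10.7, 12.7 and 9.27 CPM in the P7 control libraries. At P0, Laptm5 had 10.6, 7.47, 10.8 and 8.46 CPM in cKO libraries and 9.05, 8.31, 8.51 and 9.3 CPM in control libraries. Its groups overlapped across age, with log2 differences of 0.19 and 0.21 in cKO and control cortex (limma adjusted p = 0.187 and 0.137), although it passed under medians of ratios (0.36, adjusted p = 0.0131 in cKO cortex and 0.41, adjusted p = 0.00554 in control cortex). Laptm5 also passed in both genotypes with edgeR and with DESeq2 (adjusted p 0.00178 to 0.0209). Ly86 (chr13:37345208-37419036, plus strand), a secreted partner of a Toll-like receptor relative, had 8.28, 10.2, 7 and 6.09 CPM in the P7 cKO libraries and 7.91, 6.35, 6.72 and 5.67 CPM in the P7 control libraries. At P0, Ly86 had 4.86, 3.82, 3.82 and 3.43 CPM in cKO libraries and 3.73, 2.77, 3.15 and 3.06 CPM in control libraries. Fcgr3 (chr1:171051174-171064935, minus strand), a receptor for IgG whose reads may be shared with related Fc receptor genes, had 7.63, 6.8, 7.16 and 6.49 CPM in the P7 cKO libraries and 4.83, 7.31, 6.89 and 6.29 CPM in the P7 control libraries. At P0, Fcgr3 had 2.87, 2.05, 2.38 and 2.82 CPM in cKO libraries and 3.4, 1.77, 2.16 and 2.78 CPM in control libraries. Both were above their P0 levels in every P7 library, Ly86 by 0.82 in cKO cortex and 0.87 in control cortex, Fcgr3 by 1.19 and 1.06 in the same order on the log2 scale.

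Ptprc, the CD45 phosphatase, and Cd53, a tetraspanin, were the other 2 that were higher, by 1.03 and 1.08 in cKO cortex and 0.88 and 1.06 in control cortex. Trem2, the lipid receptor of phagocytic microglia, averaged 0.766 CPM in P7 cKO and 1.03 CPM in P7 control cortex, against 2.38 CPM in P0 cKO and 1.69 CPM in P0 control cortex. It was lower at P7, with log2 differences of -0.95 (limma adjusted p = 5.10e-05) in cKO cortex and -0.42 (adjusted p = 0.0337) in control cortex, where the call was lost under medians of ratios (-0.30, adjusted p = 0.124) and without P7 library 47 or P0 library 1, 2 or 5 (adjusted p 0.0545 to 0.151). In control cortex Trem2 was not called with edgeR (adjusted p = 0.158) or DESeq2 (adjusted p = 0.216) either. Fcer1g, the signalling chain of Fc receptors, was lower as well, at -0.61 in cKO and -0.43 in control cortex, and lost its call in control cortex in the same way (-0.29, adjusted p = 0.112). It also lost it with edgeR (adjusted p = 0.130) and with DESeq2 (adjusted p = 0.190). The same call was lost without P0 control libraries 2 and 6 together (-0.38, adjusted p = 0.101), without library 6 alone (adjusted p = 0.0557) and without P7 library 47 (adjusted p = 0.0835). Tyrobp, the adaptor through which Trem2 signals, did not pass in either genotype (-0.23, adjusted p = 0.22 in cKO cortex and 0.10, adjusted p = 0.611 in control cortex), nor did Csf3r, the G-CSF receptor.

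Among the genes of uptake and lysosome, Mertk and Ifi30 moved most and in opposite directions. Mertk (chr2:128698956-128802894, plus strand), a receptor kinase for the uptake of dying cells that astrocytes also carry, had 26.6, 29.5, 29.4 and 26.6 CPM in the P7 cKO libraries and 29.9, 29.6, 29.4 and 26.2 CPM in the P7 control libraries. At P0, Mertk had 7.85, 5.48, 6.53 and 6.53 CPM in cKO libraries and 5.48, 6.53, 5.08 and 6.18 CPM in control libraries. It was higher at P7 by 1.94 (SE 0.11, limma adjusted p = 1.57e-12) in cKO cortex and 2.13 (SE 0.11, adjusted p = 3.04e-13) in control cortex. Of 11 astrocyte genes 8 were higher and 2 lower at P7 in cKO cortex (90.9% called, beside 81.7% of all genes). In control cortex 7 of these astrocyte genes were higher and 3 lower (90.9%, beside 82.5%). They summed to 3429.6 to 3876 CPM in P7 cKO and 3825 to 4129.9 CPM in P7 control cortex, against 624 to 704 CPM in P0 cKO and 519.6 to 636 CPM in P0 control cortex, and their part in the Mertk value was not tested. Ifi30 was lower at P7, with log2 differences of -1.49 (SE 0.15, limma adjusted p = 8.09e-09) in cKO cortex and -2.87 (SE 0.15, adjusted p = 2.02e-13) in control cortex, and its P7 and P0 libraries did not overlap in either genotype.

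Lgmn (chr12:102394084-102439813, minus strand), a lysosomal endopeptidase, had 57.3, 61.2, 56.9 and 54.4 CPM in the P7 cKO libraries and 55.5, 62.4, 54.5 and 51.1 CPM in the P7 control libraries. At P0, Lgmn had 49, 46.1, 47 and 45.2 CPM in cKO libraries and 35.1, 41.1, 46.1 and 51.5 CPM in control libraries. It was higher at P7 by a small step, 0.29 (limma adjusted p = 0.0106) in cKO cortex and 0.36 (adjusted p = 0.00193) in control cortex, and only P0 control library 6 reached the P7 range. Ctss (chr3:95526786-95556403, plus strand), the cathepsin S gene, had 12.6, 17.5, 13.4 and 11.1 CPM in the P7 cKO libraries and 14.7, 13.9, 13.2 and 11.2 CPM in the P7 control libraries. At P0, Ctss had 6.74, 7.86, 9.3 and 5.97 CPM in cKO libraries and 8.72, 8.03, 8.68 and 9.02 CPM in control libraries. Every P7 library lay above every P0 library, with log2 differences of 0.79 in cKO cortex and 0.56 in control cortex. Cd68 was lower at P7 in control cortex only (-0.36, limma adjusted p = 0.0147, against -0.19, adjusted p = 0.185 in cKO cortex). Aif1, the actin-binding protein Iba1, was lower in cKO cortex only (-0.39, adjusted p = 0.0174, against 0.12, adjusted p = 0.457 in control cortex). The difference between genotypes did not pass for either (limma adjusted p = 0.681 for Cd68 and 0.257 for Aif1), and both calls were lost under medians of ratios (-0.19, adjusted p = 0.169 for Cd68 and -0.30, adjusted p = 0.0652 for Aif1). Neither call held with edgeR (adjusted p = 0.193 for Cd68 and 0.0841 for Aif1) or with DESeq2 (adjusted p = 0.301 and 0.155 in the same order). The Cd68 call was also lost without P0 control libraries 2 and 6 (-0.35, adjusted p = 0.0518) and without P7 control library 47 (adjusted p = 0.0589), and the Aif1 call without P7 cKO library 41 (adjusted p = 0.0775).

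Of the transcription factors, Runx1 (chr16:92601466-92826149, minus strand) had 2.22, 3.53, 2.28 and 1.32 CPM in the P7 cKO libraries and 1.75, 1.57, 1.7 and 2.08 CPM in the P7 control libraries. At P0, Runx1 had 0.442, 0.72, 0.443 and 0.553 CPM in cKO libraries and 0.878, 0.941, 0.718 and 1.23 CPM in control libraries. It was higher at P7 by 1.08 (SE 0.16, limma adjusted p = 3.38e-06) in cKO cortex and 0.52 (SE 0.16, adjusted p = 0.00573) in control cortex, without overlap of the ages. Spi1 (chr2:91082390-91115756, plus strand), the gene of PU.1, had 1.83, 1.6, 0.569 and 1.32 CPM in the P7 cKO libraries and 1.25, 1.37, 0.81 and 0.899 CPM in the P7 control libraries. At P0, Spi1 had 1.6, 1.11, 1.77 and 1.66 CPM in cKO libraries and 1.59, 1.22, 1.44 and 1.39 CPM in control libraries. Its ages overlapped and it did not pass, at -0.15 and -0.22 on the log2 scale (limma adjusted p = 0.4 and 0.22).

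Spp1 was higher at P7 by 2.56 (SE 0.19, limma adjusted p = 9.52e-11) in cKO cortex and 2.18 (SE 0.19, adjusted p = 1.17e-09) in control cortex, and every P7 library lay above every P0 library. Cd83 had 9.19, 8.48, 6.34 and 7.61 CPM in the P7 cKO libraries and 5.83, 6.97, 7.94 and 6.23 CPM in the P7 control libraries. At P0, Cd83 had 4.81, 6.81, 6.7 and 6.58 CPM in cKO libraries and 4.17, 4.98, 5.91 and 6.96 CPM in control libraries. Its ages overlapped and it was not called (log2 difference 0.30, limma adjusted p = 0.0734 in cKO cortex and 0.26, adjusted p = 0.117 in control cortex). It passed without P7 library 44 in cKO cortex (adjusted p = 0.031) and without P0 library 6 in control cortex (adjusted p = 0.0348), and under medians of ratios (0.47, adjusted p = 0.00814 in cKO cortex and 0.45, adjusted p = 0.0104 in control cortex). Cd83 also passed in both genotypes with edgeR and with DESeq2 (adjusted p 0.00475 to 0.0163).

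**Figure D5:**
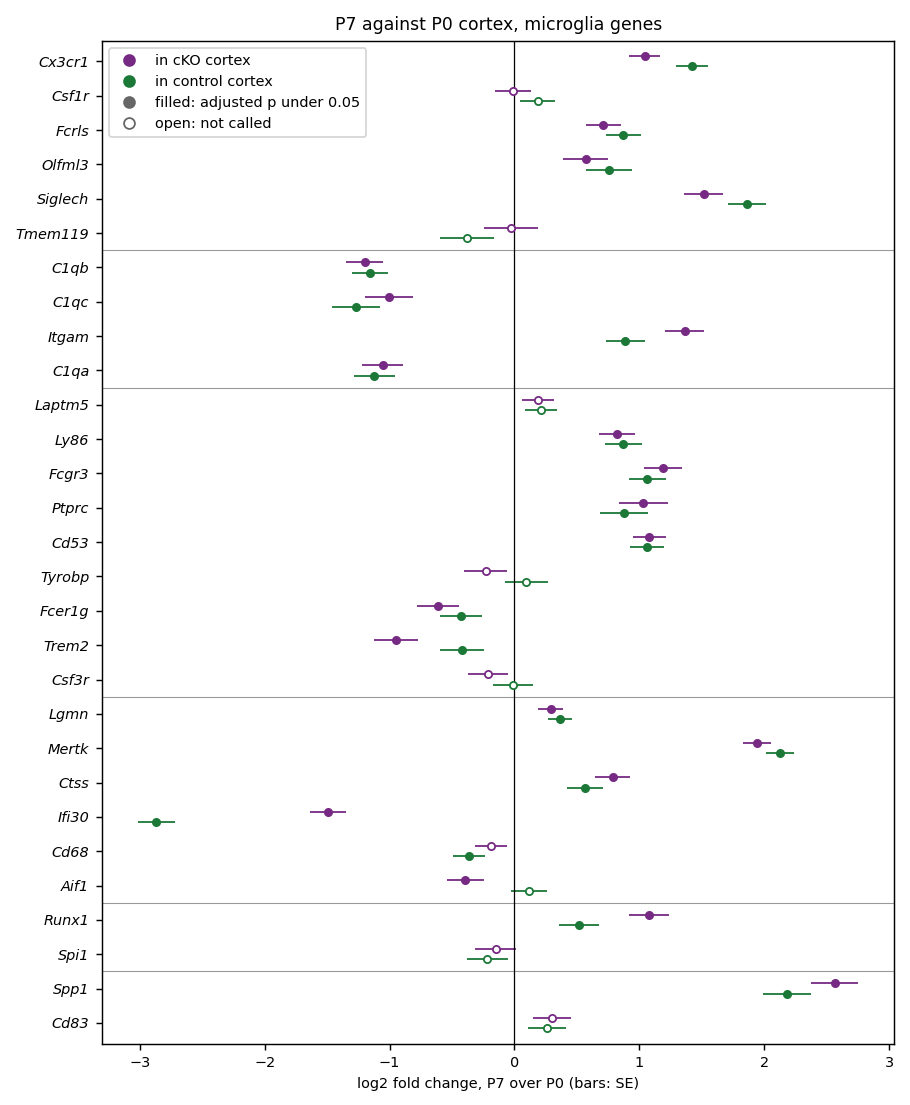
Log2 fold change of P7 over P0 in cKO and in control cortex for each member tested, from limma with bars of 1 SE; P2ry12 and P2ry13, at 0 throughout P0, are left out, and filled points passed an adjusted p of 0.05. Mertk, Spp1 and Siglech lie farthest to the right, the 3 C1q genes and Ifi30 farthest to the left, and both genotypes lie close together for most members. The shift cannot be told apart from the change of sequencing platform.

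Members that were higher at P7 were longer genes than those that were lower. The 14 higher ones without P2ry12 and P2ry13 had a median of 3507.5 exon bases and a median gene body of 37980 bases, and the 7 that were lower in control cortex had medians of 1088 and 3890 bases. Across genes the log2 age difference in control cortex correlated with body length at a Spearman rho of 0.60 over 29 members and 0.39 over 13117 genes, which is a description over genes that share libraries and platform. The part of gene length in these age differences was not tested.

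The counts of the wider lists called with age stand beside 81.7% of all genes in cKO cortex and 82.5% in control cortex. Of 14 signalling genes, 11 were higher and none lower at P7 in cKO cortex, and 10 were higher and 1 lower in control cortex, 78.6% in each. The smallest p-values in control cortex belonged to Cd47 (1.87 on the log2 scale), the alarmin Il33 (2.15) and the Mertk ligand Pros1 (1.41). Of 31 tested partners and further microglial genes, 15 were higher and 11 lower in cKO cortex (83.9%), and 16 were higher and 11 lower in control cortex (87.1%), among them Mef2a and Ctsb. Mef2a, a transcription factor that neurons also express, lay at 517 CPM in P7 control and 7.15 CPM in P0 control cortex, but 68.2% of its exon bases lie under an opposite-strand gene. The cathepsin gene Ctsb differed by -1.34 on the log2 scale, with 12.8% of its exon bases so placed.

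Of 11 tested genes of activated microglia, 7 were higher and 1 lower in cKO cortex (72.7%), and 7 were higher and 2 lower in control cortex (81.8%). Those with the smallest p-values in control cortex had log2 differences of 1.18 for Lpl and 1.45 for the phosphatidylserine-binding annexin gene Anxa5, both higher, and -1.38 for the glycolytic enzyme gene Pkm, which was lower. Of 6 tested border macrophage genes, 5 were higher and 1, Stab1, was lower in cKO cortex, and 5 were higher and none lower in control cortex. Mrc1, the mannose receptor of those cells, averaged 28 ± 2.94 CPM in P7 control and 1.33 ± 0.572 CPM in P0 control cortex (SD, n = 4 each), a log2 difference of 3.66 (SE 0.16, limma adjusted p = 2.12e-14), and Lyve1 and Cd163 differed by 2.58 and 1.01. No exon of Mrc1, Lyve1 or Cd163 lies under another gene of the table. The 11 border macrophage genes summed to 50.0 to 56.4 CPM in P7 cKO and 45.2 to 56.2 CPM in P7 control cortex, against 14.4 to 18.5 CPM in P0 cKO and 9.74 to 13.3 CPM in P0 control cortex. The 8 meningeal genes summed to 453 to 588 CPM in P7 cKO and 402 to 530.4 CPM in P7 control cortex, against 38.6 to 55.2 CPM in P0 cKO and 42.6 to 67.8 CPM in P0 control cortex. The part of border cells and meninges in the age differences of the members was not tested.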

How the data were processed

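PolyA RNA of mouse cortex was sequenced in 16 libraries, 4 per group, with groups taken from the labels. The authors deposited 1 table of CPM, reads of a gene scaled to library size. Per the submitters' processing notes the builds were mm10 and GRCm38 and the tools STAR, HTSeq and edgeR. Their versions and the strand setting were not stated. Whole reads were recovered from the deposited CPM: 100% of values were whole multiples of 1 read within 0.01 read. limma 3.58.1 (R 4.3.3), with a trended prior, tested genotype within each age on log2(CPM + 1). Genes needed 1 CPM or more in 4 libraries or more of the fit, and Benjamini-Hochberg adjustment ran over all genes tested. A call is an adjusted p under 0.05. Age and the genotype-by-age difference came from 1 fit of 16 libraries. A fold change on this scale understates the change of low genes. The value of 3 reads was 0.1956 to 0.3043 CPM at P7 and 0.1645 to 0.1671 CPM at P0. Alternatives were edgeR 4.0.16 and DESeq2 1.42.0 on the recovered reads, other pseudocounts, filters and scaling, leaving out libraries and, chosen after seeing the data, genes without overlap. Gene overlaps came from GENCODE M21 on GRCm38, and promoters from RefSeq. Library values were given for members called in a genotype comparison or in the difference between ages, and for up to 3 members of each role with the highest mean CPM. Genes of other lists were named when called between genotypes, or as up to 3 with the smallest p for age in control cortex. 1 gene that this rule selects is not reported here. Members and lists were chosen with earlier results of these data known.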

Additional observations from a re-analysis of the deposited data

Results flagged for a closer look

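Of 109 groups of 4 libraries examined over the members, 3 held a library far from the others, where chance gives about 1 in 20 groups. Fcrls was highest in P0 cKO library 3, at 6.63 CPM with the nearest library at 5.26 CPM. Cd83 was lowest in the same library, at 4.81 CPM with the nearest at 6.58 CPM. Mertk was lowest in P7 control library 47, at 26.2 CPM with the nearest at 29.4 CPM. The genotype effect on Ifi30 differed between the ages by 1.38 on the log2 scale, P7 minus P0 (SE 0.21, limma adjusted p = 0.00417).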

How the results depend on the processing

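No paired analysis was possible because the groups share no replicate numbers. Of 2567 values of single genes under the alternatives, 34 lost a call, 22 gained one and 0 called values turned round. Among values not called in either setting, 52 moved by more than 1 SE and 85 changed sign. For P7 cKO against P7 control the count of members called was 1 in place of 2 without a filter, with a mean of at least 5 CPM, with edgeR, with DESeq2 and in 1 fit over 16 libraries, and the count of all genes was 175 in place of 477 in that fit. For P0 cKO against P0 control it was 1 member in place of 0 with DESeq2 and 2 in 1 fit over 16 libraries, and the count of all genes was 7 without a filter, 429 with DESeq2, 794 in 1 fit over 16 libraries and 118 without control libraries 2 and 6, in place of 32. With a mean of at least 5 CPM, which left 10828 genes to test, 11 members in place of 23 were called with age in each genotype. Every call lost under that filter belonged to a member that it left untested. The genotype-by-age difference was called for 54 genes without a filter, 291 with DESeq2 and 175 without control libraries 2 and 6, in place of 101. Leaving out 1 library at a time gave 1 member and 281 to 496 genes at P7, 0 to 1 members and 4 to 136 genes at P0, 22 to 24 members and 10669 to 10724 genes with age in cKO cortex, 20 to 23 members and 10827 to 11148 genes with age in control cortex, and 1 member and 45 to 361 genes for the difference. The cause of these shifts was not tested. Members with few reads, such as Aif1, Trem2 and Spi1 at P7, could show large changes only.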
